A study of Mus musculus with 5 samples.

Results

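The glandular kallikreins are the closely related serine protease genes of the Klk1 subfamily, which lie side by side on mouse chromosome 7. The genes described here are 10 copies chosen by symbol, Klk1, Klk1b1, Klk1b3, Klk1b4, Klk1b5, Klk1b8, Klk1b11, Klk1b21, Klk1b22 and Klk1b24, of 55573 genes in the table. They were chosen with their tumour and normal levels known, so those levels are given as a description, with no test. Reads can be shared between copies, so each copy and the sum over the 10 are reported. RNA was sequenced from 3 tumours of genotype Th-Cre:MYC and from the normal pancreas of 2 littermates of wild-type genotype. The tumour mice came from a cross of a TH-Cre mouse with a CAG-STOPflox/flox-MYC mouse, so a Cre driven by the tyrosine hydroxylase promoter removes a stop before a CAG-driven MYC. Tumour growth was followed by ultrasound, and the labels name no age, sex or batch. No label says which cells of the pancreas used the promoter, or whether tumour replicates 1 and 2, whose titles share a number, came from the same animal.

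Tissue kallikreins cleave short stretches out of larger secreted proteins. The best known product of Klk1 is the kinin released from kininogen, a peptide that acts on bradykinin receptors and is destroyed by peptidases called kininases. In the mouse the subfamily has expanded into many copies that are best known from the submandibular salivary gland, where several bind growth factor precursors. In the pancreas Klk1 is a product of the acinar cells, which secrete the digestive enzymes.

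The libraries held 6611967 to 15074489 estimated counts in tumours and 48848987 to 51669489 in normal pancreas. The libraries of tumours and normal pancreas also differed in RNA classes. Protein-coding genes took 62.2% to 68.4% of the counts in tumours and 99.2% to 99.4% in normal pancreas, and the misc_RNA class took 22.0% to 25.3% in tumours and at most 0.00116% in normal pancreas. Library type is not given in the sources used here, so a difference in library preparation cannot be told apart from tissue. Fitting protein-coding genes only left the summed kallikrein difference nearly as large, as given below. That fit used the same libraries, so it cannot separate preparation from tissue either. The normal libraries carried the acinar genes of the tissue they are labelled as. The 28 acinar enzyme genes took 0.00971% to 0.467% of the counts in tumours and 75.5% to 76.1% in normal pancreas. Of 2 genes of noradrenaline synthesis, named after their values were seen, Th had 428, 194 and 15 counts in tumours and 0 in both normal libraries, while Dbh was at 0 in all 5 libraries.

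All 10 copies lie on the + strand of chromosome 7 within 278.955 kb (GENCODE M21, GRCm38), and the annotation gives each of them 5 exons. Klk1 lies at one end of the row, at chr7:44225360-44229618. Next to it in order of distance come Klk1b5 at chr7:44215945-44220703, Klk1b4 at chr7:44207435-44211754, Klk1b3 at chr7:44198191-44202352 and Klk1b24 at chr7:44188236-44192455. Klk1b22 (chr7:44112673-44116922) and Klk1b21 (chr7:44102328-44106583) lie in the middle. The far end holds Klk1b11 (chr7:43995877-43999875), Klk1b1 (chr7:43966751-43971318) and Klk1b8 (chr7:43950664-43954941).

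The promoter sequences of 4 copies are shown because they set the most abundant copy and its nearest neighbour beside a pair that are close in sequence and unlike in level. Each holds 250 bases before and 50 bases after the RefSeq start on GRCm38.p6, from the + strand, at chr7:44225110-44225409 for Klk1, chr7:44216224-44216523 for Klk1b5, chr7:44187986-44188285 for Klk1b24 and chr7:44102042-44102341 for Klk1b21. Capitals mark TTTAAA, which reads the same on both strands, and TGGGAA or its reverse complement TTCCCA, the core that the Notch pathway factor RBPJ and its pancreatic relative RBPJL bind.
Klk1: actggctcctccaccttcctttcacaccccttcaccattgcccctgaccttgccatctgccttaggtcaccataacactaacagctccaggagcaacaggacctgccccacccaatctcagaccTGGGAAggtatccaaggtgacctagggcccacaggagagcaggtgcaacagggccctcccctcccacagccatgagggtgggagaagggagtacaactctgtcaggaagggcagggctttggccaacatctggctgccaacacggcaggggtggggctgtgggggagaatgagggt
Klk1b5: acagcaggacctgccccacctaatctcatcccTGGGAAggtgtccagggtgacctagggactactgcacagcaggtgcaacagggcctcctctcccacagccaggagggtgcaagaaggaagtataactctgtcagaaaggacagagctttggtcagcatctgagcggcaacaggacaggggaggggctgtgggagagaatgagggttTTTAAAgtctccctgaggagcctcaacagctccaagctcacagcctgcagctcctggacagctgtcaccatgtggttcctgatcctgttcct
Klk1b24: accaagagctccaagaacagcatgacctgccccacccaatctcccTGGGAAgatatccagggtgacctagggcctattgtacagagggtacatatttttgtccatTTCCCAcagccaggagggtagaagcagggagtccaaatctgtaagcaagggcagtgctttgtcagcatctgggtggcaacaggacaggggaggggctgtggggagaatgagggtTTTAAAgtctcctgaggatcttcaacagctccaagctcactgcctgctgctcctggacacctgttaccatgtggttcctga
Klk1b21: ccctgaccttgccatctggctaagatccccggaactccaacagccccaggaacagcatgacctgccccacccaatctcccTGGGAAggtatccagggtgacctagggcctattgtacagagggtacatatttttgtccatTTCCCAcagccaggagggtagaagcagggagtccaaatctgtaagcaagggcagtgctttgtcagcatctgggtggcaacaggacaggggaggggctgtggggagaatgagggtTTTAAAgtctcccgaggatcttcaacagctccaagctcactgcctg

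Of 32851 RefSeq promoters searched on both strands, 25.6% held TGGGAA, and 9 of the 10 kallikrein promoters did, Klk1b11 being the exception. Counted from the start, TGGGAA began at base -126 in Klk1 and at -218 in Klk1b5. TTTAAA, a motif added after the sequences had been seen, was in 13.2% of promoters and in 9 of the 10 kallikrein promoters, all except that of Klk1. It began at -42 in Klk1b5, at -31 in Klk1b24 and at 5, after the start, in Klk1b21. These positions count from RefSeq starts. The GENCODE starts of Klk1b5 (chr7:44215945) and Klk1b21 (chr7:44102328) differ from them and would give other positions. In Klk1 the letters TTTAAA began at base 52 of the 954-base transcript, outside the window, and the best alignment of the Klk1 and Klk1b5 promoters was offset by 92 bases. CACCTG was in 20.2% of promoters and in 9 of the 10, and the wider E-box CANNTG, which includes it, was in 72.3% and in all 10. GATAA was in 25.4% of promoters and in 1 of the 10, that of Klk1b22. Neither TATAAA, in 13.6% of promoters, nor TCAAGGTCA, in 0.423%, was in any of the 10. These matches describe letters in a window and were not tested for binding. The 10 windows are related copies, so they are not independent instances of a motif.

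In normal pancreas Klk1 was among the abundant transcripts, and in tumours all 10 copies were close to absent. The 10 copies together had 6, 1 and 24 counts in tumour replicates 1, 2 and 3, and 145371 and 128333 counts in normal replicates 1 and 2. On the TPM scale, which corrects for transcript length, the sum was 0.19, 0.05 and 1.49 in tumours and 4412.58 and 3592.13 in normal pancreas. Every tumour lay far below both normal libraries, and the groups did not overlap. The mean of the sum was 0.577 ± 0.794 TPM in tumours (SD, n = 3) and 4002 ± 580 TPM in normal pancreas (SD, n = 2). With counts pooled over each group and libraries scaled by edgeR's TMM method, the sum was 27787 times lower in tumours (normal over tumour, 95% exact interval 19576 to 40897 for counting error only). Tumour replicate 3, the smallest library, held 24 of the 31 tumour counts, and without it the ratio was 99876. Without tumour replicate 1 it was 18995 and without tumour replicate 2 it was 17635.

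The size of that ratio depends on how the libraries are scaled and combined. With TMM scaling and group means in place of pooled counts, the log2 fold change was -14.01, a smaller ratio than the pooled one. The TPM means above give a smaller ratio still. In pooled counts with total counts only, which ignores that the enzymes fill most of a normal library, the sum was 3006 times lower in tumours. With protein-coding genes only, scaled by TMM, it was 27077 times lower. As a share of all counts, the 10 copies took 3.98e-05%, 7.94e-06% and 0.000363% in tumours and 0.298% and 0.248% in normal pancreas. These are bulk samples, in which fewer cells of a type and less RNA per cell cannot be told apart.

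**Figure D1:**
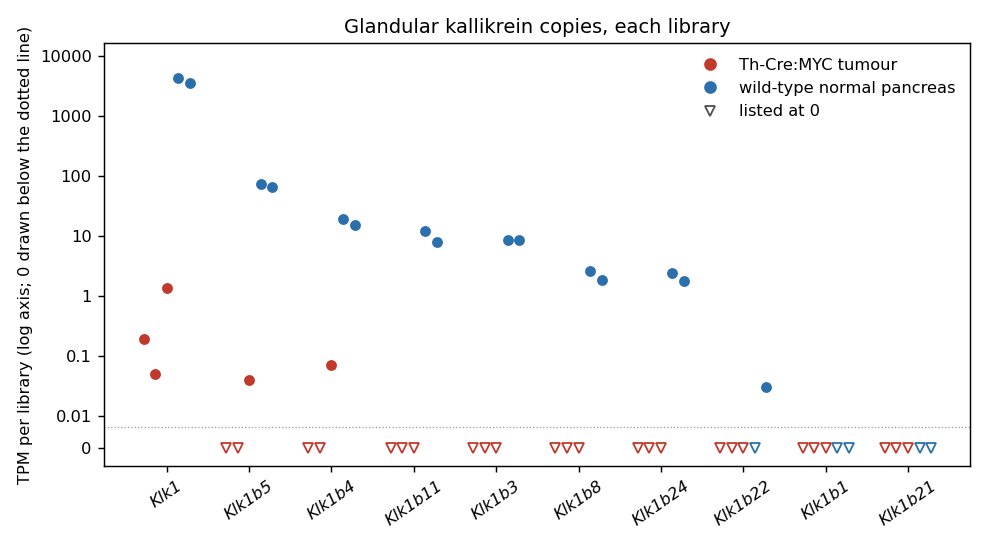
TPM of each of the 10 copies in each library on a log axis, with tumours in red to the left of normal pancreas in blue and values of 0 as open triangles below the dotted line. Tumour values above 0 belong to Klk1, Klk1b5 and Klk1b4, with a highest value of 1.38 TPM, and 7 copies lie above 1 TPM in both normal libraries.

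Klk1, the kinin-releasing tissue kallikrein itself (ENSMUSG00000063903.5), made up nearly all of the sum. It had 6, 1 and 22 counts in tumours and 140191 and 123582 counts in normal pancreas. Its TPM was 0.19, 0.05 and 1.38 in tumours and 4295.48 and 3492.61 in normal pancreas, where it ranked 27 among protein-coding genes in both libraries. In tumours its rank was 13460, 14819 and 8965. The pooled ratio of normal over tumour was 28626 (95% exact interval 19932 to 42744), 96252 without tumour replicate 3, 18209 without tumour replicate 2 and 19897 without tumour replicate 1. Klk1 took 100% of the summed counts in tumour replicate 1 (6 counts, 95% Clopper-Pearson interval 54.1% to 100%) and 91.7% in tumour replicate 3 (24 counts, 73.0% to 99.0%), beside 96.4% (96.3% to 96.5%) and 96.3% (96.2% to 96.4%) in normal pancreas. The share of Klk1 in tumour replicate 3 was thus within counting error of that in normal pancreas. Tumour replicate 2, with 1 count, gave no usable share.

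The annotation holds 3 Klk1 transcripts, of which the longest, of 954 bases, codes for the protease and another, of 753 bases, keeps an intron. The gene length that RSEM weights by transcript was 954, 753 and 954 bases in tumours and 919.1 and 932.48 bases in normal pancreas. From these lengths the 954-base transcript made up 82.5% to 82.6% of Klk1 in normal replicate 1 and 89.2% to 89.3% in normal replicate 2. The 6 and 22 counts of tumour replicates 1 and 3 were assigned to the long transcript, and the single count of tumour replicate 2 to the one that keeps an intron. These tumour numbers are too small to compare transcript use.

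Without Klk1, the other 9 copies summed to 0, 0 and 2 counts in tumours and 5180 and 4751 counts in normal pancreas. Klk1b5 (ENSMUSG00000066512.3), the copy beside Klk1 and the closest to it in sequence, came second. It had 0, 0 and 1 counts in tumours and 3839.38 and 3619.36 counts in normal pancreas, or 0, 0 and 0.04 TPM in tumours and 72.41 and 64.21 TPM in normal pancreas. The pooled ratio of normal over tumour was 23472 (95% exact interval 4211 to 927209), an interval this wide because it rests on 1 tumour count. Without tumour replicate 3 Klk1b5 was at least 6350-fold lower in tumours, and the ratio was 12939 without tumour replicate 1 and 14416 without tumour replicate 2. Within normal pancreas Klk1 stood 59.3 and 54.4 times above Klk1b5 in TPM.

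Klk1b4 and Klk1b3 were both present in normal pancreas at lower levels. Klk1b4 (ENSMUSG00000066513.4), a copy known to lack protease activity, had 0, 0 and 0.07 TPM in tumours and 18.81 and 15.13 TPM in normal pancreas. Its 1 tumour count gave a pooled ratio of 3210 (95% exact interval 575 to 126916, normal over tumour), and the ratio was 1770 without tumour replicate 1 and 1972 without tumour replicate 2. Without tumour replicate 3 it was at least 868-fold lower in tumours. Klk1b3 (ENSMUSG00000066515.3), an active protease, had 0 counts in every tumour and 272.16 and 283.11 counts in normal pancreas, or 8.69 and 8.48 TPM. It was at least 582-fold lower in tumours, taking 3 counts over the 3 tumours as the floor (lower 95% exact limit 472). Leaving out tumour replicate 1 gave a bound of 321, and leaving out tumour replicate 2 gave 358. Klk1b22 (ENSMUSG00000060177.6) had 0 counts in every tumour and 0 and 1 counts in normal pancreas. Klk1b22 was therefore at the floor in both groups and no fold is given.

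A further 3 copies were low in normal pancreas and at 0 in tumours. Klk1b11 had 12.19 and 8.06 TPM in normal pancreas and was at least 659-fold lower in tumours. Klk1b8 had 2.6 and 1.82 TPM in normal pancreas and was at least 143-fold lower in tumours. Klk1b24 had 2.4 and 1.79 TPM in normal pancreas and was at least 140-fold lower in tumours. Without tumour replicate 1, the largest tumour library, these bounds were 363 for Klk1b11, 78.7 for Klk1b8 and 76.9 for Klk1b24. Without tumour replicate 2 they were 405, 87.6 and 85.7 in the same order, and with total counts only they were 71.3, 15.4 and 15.1. All these bounds take 3 tumour counts as the floor. With all libraries and TMM scaling the lower 95% exact limits were smaller, at 534 for Klk1b11, 114 for Klk1b8 and 112 for Klk1b24. Klk1b1 and Klk1b21 were at 0 counts in all 5 libraries. A count of 0 allows up to 0.0797, 0.0929 and 0.208 CPM (counts scaled by TMM library size) in tumour replicates 1, 2 and 3, and 0.227 and 0.221 CPM in normal pancreas.

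By TPM in normal pancreas the order was Klk1, Klk1b5, Klk1b4, Klk1b11, Klk1b3, Klk1b8, Klk1b24 and Klk1b22. The values of the 2 normal libraries overlapped between Klk1b11 and Klk1b3 and between Klk1b8 and Klk1b24, so these neighbours were not separated. The other neighbours in the order did not overlap. Of the 10 copies, 7 passed edgeR's filter on low counts and all 7 were called lower in tumours, beside 27.8% of the 16810 genes tested. These are the values by which the genes were chosen, and a copy at 0 in tumours passed only through its normal counts, so nothing is read from that count. Klk1b1, Klk1b21 and Klk1b22 were not tested.

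Position and sequence set the 10 copies apart in ways that their choice did not use. Over the 4 copies nearest to Klk1 the normal level fell with distance, from Klk1b5 with its start 9.415 kb away to Klk1b4 at 17.925 kb, Klk1b3 at 27.169 kb and Klk1b24 at 37.124 kb, with means of 68.3, 17.0, 8.59 and 2.10 TPM. The order did not go on beyond them. Klk1b22 and Klk1b21, 112.687 and 123.032 kb away, were at or near 0, while Klk1b11 and Klk1b8, 229.483 and 274.696 kb away, reached means of 10.1 and 2.21 TPM. Between Klk1b11 and Klk1b8 lay Klk1b1, at 0. Spearman's rho between normal TPM and nearness to Klk1 was 0.603 over the 9 copies other than Klk1 and 0.488 over all 13 protein-coding copies other than Klk1, a description over genes that share 2 libraries and part of their sequence.

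Reads of one copy can be counted for another, and the likeness of each copy to Klk1 was therefore measured on the annotated transcripts. Of the 75-base windows of the longest Klk1 transcript, 14.4% occurred unchanged in another gene and 11.1% in Klk1b5. Of the Klk1b5 windows, 7.44% occurred in Klk1 and 25.3% matched it with at most 2 mismatches, the highest share among the copies. The share within 2 mismatches was 16.6% for Klk1b4, 12.4% for Klk1b21, 11.8% for Klk1b11, 8.71% for Klk1b3, 7.21% for Klk1b24 and 3.18% for Klk1b8. From Klk1b5 through Klk1b4 and Klk1b3 to Klk1b24 the share fell together with level and with nearness to Klk1. Distance and likeness therefore cannot be told apart over these copies. Among the other copies level did not follow likeness throughout. By this share Klk1b21, next after Klk1b5 and Klk1b4, was at 0, and Klk1b8, the least alike of the 10, had 78 and 58.18 counts in normal pancreas. Spearman's rho between normal TPM and this share was 0.51 over the 9 copies and 0.27 over all 13 protein-coding copies other than Klk1. Shared windows became more common at 50 bases, at 12.8% to 33.9% per copy, and rarer at 100 bases, at 0% to 6.08%. Read length is not given in the sources used here, so how much of the Klk1b5 level came from Klk1 reads was not tested.

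Klk1b24 and Klk1b21, the second pair of promoters printed above, show how unlike in level similar copies were. Their transcripts were 92.84% identical and their promoters 97.74% identical over 265 aligned positions, with an offset of 35 bases between the annotated starts. Klk1b24 had 74.02 and 59.04 counts in normal pancreas, and Klk1b21 had 0 in both. For Klk1 and Klk1b5 the transcripts were 94.1% identical and promoters 84.6%.

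**Figure D2:**
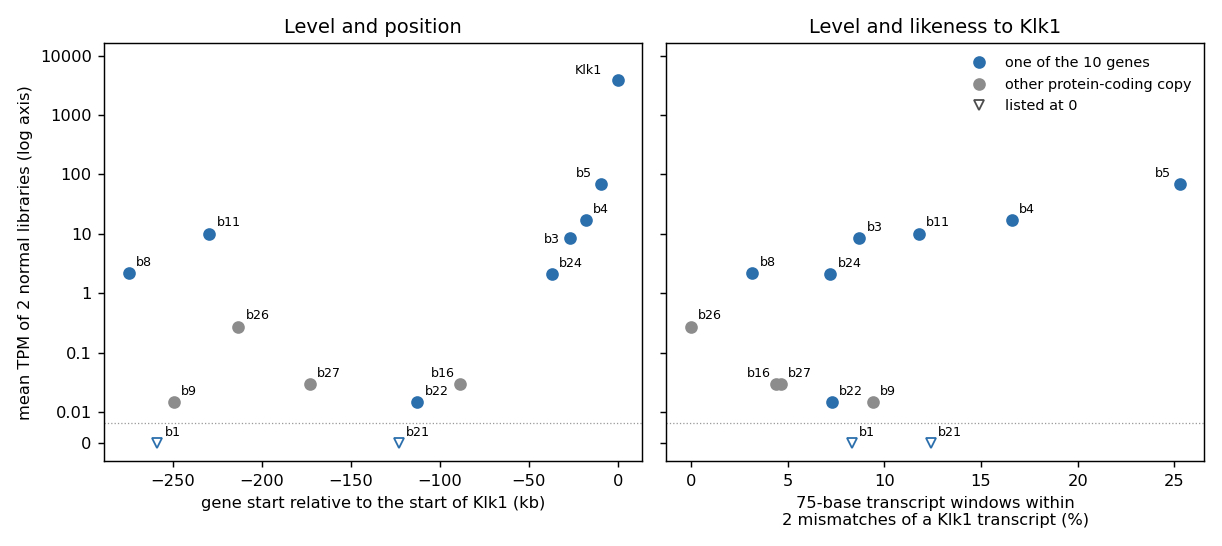
Mean TPM of the 2 normal libraries (log axis, 0 below the dotted line) against distance from the start of Klk1 in kb (left) and against the share of 75-base windows within 2 mismatches of Klk1 (right, Klk1 left out), for the 10 genes in blue and the 4 other protein-coding copies in grey, with names shortened to the part after Klk1. Level falls over the 4 copies nearest to Klk1, from 68.3 to 2.10 TPM, and b11 and b8 at the far end break that order. Over the same 4 copies likeness to Klk1 falls too.

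The table holds 14 other Klk1b rows, 4 of them protein-coding and 10 pseudogenes, of which 8 were at 0 in every library. Together these rows had 0, 1 and 0 counts in tumours and 21 and 19 counts in normal pancreas. Klk1b26, known as an enzyme that processes prorenin in the salivary gland, had 15 and 15.04 of the normal counts. The rows outside the 10 therefore add little to the sum. The gene Gm10109 lies on the - strand (chr7:44221017-44227421) and overlaps 2062 bases of Klk1 but none of its exons. It had 0 counts in every tumour and 165.35 and 187 counts in normal pancreas. Whether the libraries kept the strand is not given in the sources used here, so reads of Gm10109 and of Klk1 introns cannot be told apart.

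The tumour counts of the kallikreins were set beside those of acinar genes, which moved with them. Of the 28 acinar enzymes 26 were lower in tumours by edgeR (adjusted p under 0.05), and of 16 other acinar genes, among them the transcription factors Ptf1a, Rbpjl and Nr5a2, all 16 were, beside 27.8% lower among all genes tested. Some of them, such as Tmed11 and Cela3a at 0 in every tumour and Ptf1a and Gata4 near it, passed the filter only through their normal counts. For these a lower call was nearly fixed in advance, so the numbers of calls are a description. For every 1000 counts of the 28 enzymes, the kallikreins had 1.45 (95% exact interval 0.531 to 3.15), 0.817 (0.0207 to 4.56) and 0.778 (0.498 to 1.16) counts in tumours, and 3.91 and 3.29 counts in normal pancreas. The intervals of tumour replicates 1 and 3 lay below both normal values, and that of tumour replicate 2 held both. The result differed with the enzyme chosen. For every 1000 counts of Cela1, an elastase, the kallikreins had 12.6 (4.60 to 27.6), 7.41 (0.186 to 42.0) and 60.8 (38.5 to 91.7) counts in tumours and 66.5 and 62.0 in normal pancreas, so tumour replicate 3 held the normal ratio and the other two did not. For every 1000 counts of Cpa1, a carboxypeptidase, they had 167 (57.4 to 399), 83.3 (1.95 to 563) and 16.9 (10.8 to 25.2) counts in tumours and 71.6 and 58.2 in normal pancreas. Here the lowest ratio was that of tumour replicate 3, below both normal values. For every 1000 counts of Prss2, a trypsinogen, the ratio was 130 (45.5 to 306), 500 (8.48 to 9605) and 16.1 (10.3 to 24.1) in tumours and 98.1 and 77.8 in normal pancreas. Tumour replicate 3 was thus low in kallikrein relative to Cpa1 and Prss2 and not relative to Cela1. The part of acinar cells in the kallikrein difference was not tested.

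**Figure D3:**
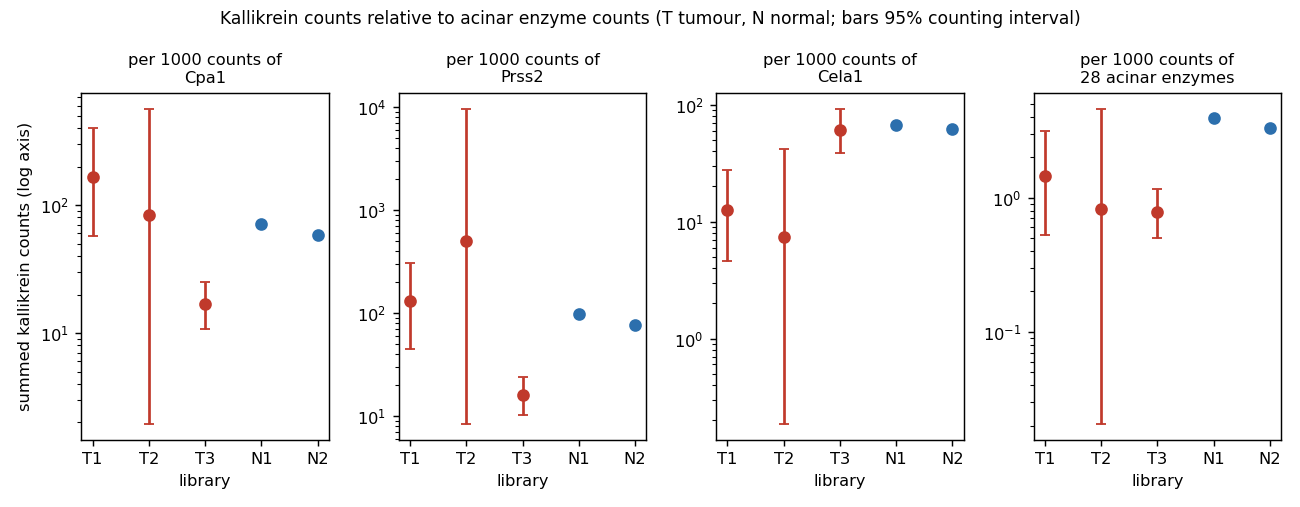
Summed kallikrein counts per 1000 counts of Cpa1, Prss2, Cela1 and all 28 acinar enzymes in each library (log axes), tumours T1 to T3 in red and normal libraries N1 and N2 in blue, with 95% exact counting intervals that are smaller than the points in normal pancreas. T3 lies below both normal libraries for Cpa1 and Prss2, at 16.9 and 16.1, and near them for Cela1, at 60.8.

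Markers of other glands and ducts were read for the same reason. Of 12 salivary gland markers 10 were at 0 in all libraries, among them Bpifa2, Smr2, Smr3a and Dcpp1. Of the other two, Muc19 had 0, 2 and 0 counts in tumours and 0 in normal pancreas, and the amylase gene Amy1 had 48, 38 and 15 counts in tumours and 4620 and 3981 counts in normal pancreas. Summed salivary markers took 0.000227% to 0.000318% of the counts in tumours and 0.00771% to 0.00946% in normal pancreas, nearly all from Amy1. The amylase gene Amy2a5, on the acinar list, had 3493610 and 3523590 counts in normal pancreas. Whether reads of such amylase genes were counted for Amy1 was not tested. Of 12 duct markers 11 were tested, 3 were higher and 5 lower in tumours, beside 39.2% higher and 27.8% lower among all genes tested, and Tff1 was at 0 throughout. Summed duct markers took 0.0342% to 0.0615% of the counts in tumours and 0.0155% to 0.0156% in normal pancreas. With TMM scaling the direction turned, at 247, 134 and 209 CPM in tumours and 573 and 593 CPM in normal pancreas. Most of the normal sum came from 1 gene, Muc1, with 0.425, 0.434 and 0.692 CPM in tumours and 335 and 379 CPM in normal pancreas.

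The 5 protein-coding genes outside the family whose levels followed the summed kallikreins most closely over the 5 libraries were Cela1, Pla2g1b, Tff2, Ctrl and Rnase1, out of 14062 candidates. Likeness was the root mean square distance between centred log2(CPM + 0.5) profiles. It was 0.39 log2 units for Cela1, 0.55 for the phospholipase gene Pla2g1b, 0.78 for the trefoil peptide gene Tff2, 0.94 for the chymotrypsin-like protease gene Ctrl and 1.10 for the ribonuclease gene Rnase1. Pla2g1b had 0, 0.0310 and 2.56 CPM in tumours and 5275 and 5730 CPM in normal pancreas, beside 0.159, 0.0310 and 1.66 CPM in tumours and 10992 and 9452 CPM in normal pancreas for the summed kallikreins. In both, the highest tumour value was that of replicate 3. The summed kallikreins lay below 0.5 CPM in tumour replicates 1 and 2, so the added 0.5 compresses differences there. For every 1000 counts of Cela1 they had 12.6, 7.41 and 60.8 counts in tumours and 66.5 and 62.0 in normal pancreas. The order of the 5 genes with another added value was not tested. All 5 genes were also on the acinar lists above.

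The rest of the kinin system did not move in one direction. Of 27 listed genes, chosen by role, 17 were tested, 5 were higher and 5 lower in tumours and 7 did not pass edgeR's quasi-likelihood test, beside 39.2% higher, 27.8% lower and 67.0% in either direction among all genes tested. The median log2 fold change of the 17 was -0.39, beside 0.38 over all genes tested. With total counts only the median over all genes was 3.55, and 15 kinin genes were called higher and 1 lower. Of the 10 genes called with TMM, 4 changed sign there, Ace, Cpn1, Thop1 and Xpnpep1.

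The substrate and receptor genes of the system were low in both tissues. The kininogen gene Kng2 had 17, 6 and 2 counts in tumours and 20 and 23 counts in normal pancreas, and Kng1 had 6, 0 and 0 counts in tumours and 1 and 1 in normal pancreas. The plasma kallikrein gene Klkb1 had 4, 4 and 2 counts in tumours and 0 in normal pancreas, and F12, the contact factor that activates it, was at 0 throughout. None of these 4 genes passed the filter on low counts. The receptor gene Bdkrb2, which is expressed constitutively in many tissues, had 44, 45 and 33 counts in tumours and 33 and 36 counts in normal pancreas. It did not pass, with a log2 fold change of -0.70 (SE 0.40, edgeR adjusted p = 0.162), and passed as higher with total counts only. Bdkrb1, the receptor induced by injury, had at most 1 count in any library.

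Among the kininases, 13 of 15 genes were tested, 3 were higher, 4 were lower and 6 did not pass. Cpe, a carboxypeptidase best known for trimming prohormones, had 316, 213 and 253 TPM in tumours and 1.19 and 1.74 TPM in normal pancreas. Its log2 fold change was 6.32 with an SE of 0.33 (edgeR adjusted p = 3.36e-05), far beyond the spread within either tissue. Ece1, an endothelin-converting peptidase that also cleaves bradykinin, had 78.4, 58.2 and 68.0 TPM in tumours and 5.17 and 9.41 TPM in normal pancreas and rose by 1.77 (SE 0.21, edgeR adjusted p = 0.000529). Dpp4, a dipeptidyl peptidase, rose by 0.99 (SE 0.33, edgeR adjusted p = 0.0366), a call lost without normal replicate 1 (adjusted p = 0.126) or 2 (0.163). Both Cpe and Ece1 stayed called without any single library.

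The kininases that were lower in tumours had small fold changes whose sign depended on the scaling. Xpnpep1, an aminopeptidase that inactivates bradykinin, fell by 1.38 (SE 0.13, edgeR adjusted p = 0.000227), and Cpn1, the catalytic subunit of plasma carboxypeptidase N, fell by 1.15 (SE 0.15, edgeR adjusted p = 0.000767). Ace, the angiotensin-converting enzyme, had 6.75, 6.69 and 9.49 CPM in tumours and 14.1 and 13.4 CPM in normal pancreas and fell by 0.86 (SE 0.20, edgeR adjusted p = 0.00948), a call lost without normal replicate 1 (adjusted p = 0.0679) or 2 (0.0575). Thop1, a cytosolic oligopeptidase, fell by 0.60 (SE 0.15, edgeR adjusted p = 0.0113), a call lost without normal replicate 1 (adjusted p = 0.0990). With total counts only, all 4 were positive, at 1.81 for Xpnpep1, 2.02 for Cpn1, 2.31 for Ace and 2.58 for Thop1, and each of these lay below the all-gene median of 3.55. On the log2(TPM + 1) scale Thop1 passed as higher in tumours (0.80, limma adjusted p = 0.00908).

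Inhibitors of kallikreins and contact enzymes moved both ways. Serping1, the C1 inhibitor that restrains plasma kallikrein, had 44.9, 102 and 64.5 CPM in tumours and 31.1 and 21.6 CPM in normal pancreas and rose by 1.42 (SE 0.37, edgeR adjusted p = 0.0140), a call lost without normal replicate 2 (adjusted p = 0.107). A2m, a broad protease inhibitor, had 46, 19 and 4 counts in tumours and 0 in normal pancreas, at least 7.31-fold higher in tumours (edgeR adjusted p = 0.0138), a call lost without normal replicate 1 (adjusted p = 0.0540) or 2 (0.0545). A2m and Ngfr, near 0 in normal pancreas, passed the filter only through their tumour counts. Spink1, the pancreatic trypsin inhibitor and itself a gene of the acinar list, had 1, 0 and 286 counts in tumours and 30104 and 28107 counts in normal pancreas. It fell by 8.41 (SE 2.45, edgeR adjusted p = 0.0213), with nearly all of its tumour counts in replicate 3, and was not past the threshold without normal replicate 1 (adjusted p = 0.0675) or 2 (0.0666).

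Tissue kallikreins of the other subfamilies were nearly silent in both tissues. Of 12 listed genes 8 were at 0 in all libraries and 1, Klk8, passed the filter. Klk8, a protease known from brain and skin, had 10, 16 and 2 counts in tumours and 1 and 2 counts in normal pancreas. Its log2 fold change of 1.45 did not pass (SE 0.83, edgeR adjusted p = 0.162, unadjusted p = 0.128), so edgeR called 0 genes of the list, with 0 at an unadjusted p under 0.05. Klk6, a protease of brain and epithelia, had 0 counts in every tumour and 6 and 16 counts in normal pancreas, at least 23.1-fold lower in tumours. It failed the filter, and was called lower by edgeR without a filter (adjusted p = 0.00373) and by DESeq2 (adjusted p = 0.00071).

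Growth factor and renin system genes linked to these proteases in salivary gland and kidney were read last. Of 9 genes 8 were tested, 3 were higher and 2 lower in tumours and 3 did not pass, so that 5 of 8 were called beside 67.0% of all genes tested. The growth factor gene Egf had 4.52, 1.73 and 3.05 CPM in tumours and 111 and 133 CPM in normal pancreas and fell by 5.28 (SE 0.39, edgeR adjusted p = 8.93e-05). Its receptor gene Egfr fell by 2.47 (SE 0.23, edgeR adjusted p = 0.000228). With total counts only Egfr passed as higher in tumours, at 0.70 (edgeR adjusted p = 0.0311). Ngfr, a neurotrophin receptor gene, had 73, 64 and 89 counts in tumours and 2 and 0 counts in normal pancreas, a pooled ratio of 35.9 for tumour over normal (95% exact interval 9.83 to 298, edgeR adjusted p = 0.00559). Agt, the renin substrate, had 7.32, 10.4 and 6.84 TPM in tumours and 0.12 and 0.27 TPM in normal pancreas and rose by 3.94 (SE 0.38, edgeR adjusted p = 0.000233). Atp6ap2, the prorenin receptor, rose by 0.99 (SE 0.20, edgeR adjusted p = 0.00503). Ren1, the renin gene, had 1 count in tumour replicate 3 and 0 elsewhere.

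**Figure D4:**
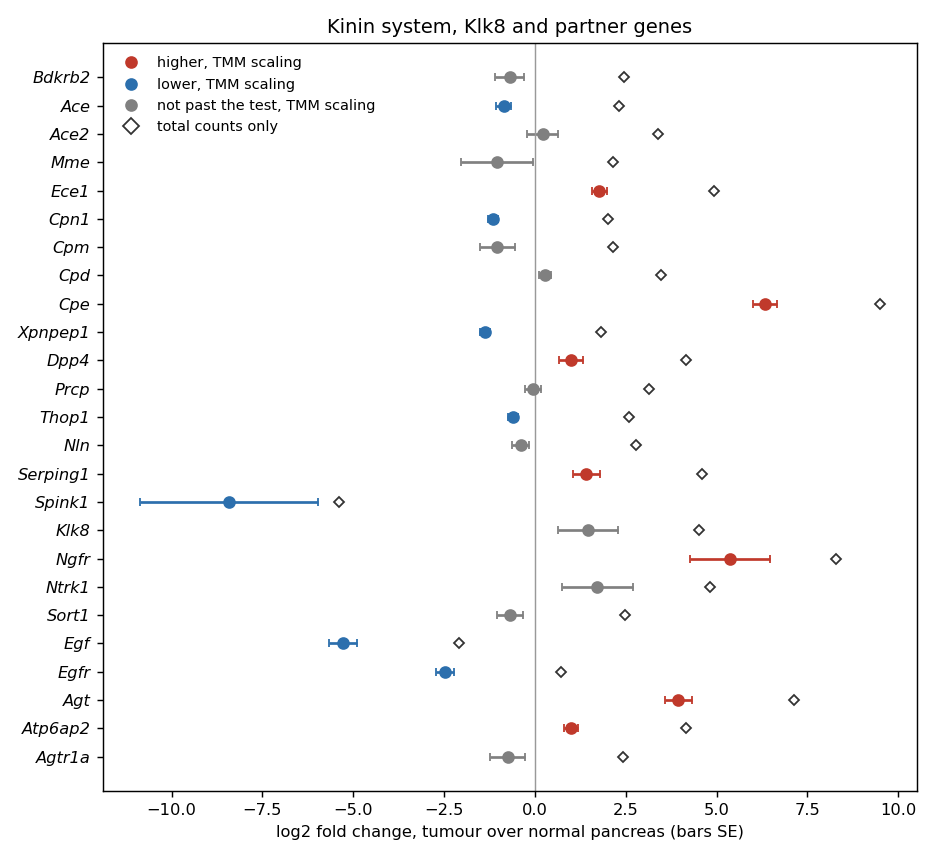
Log2 fold change of tumour over normal pancreas for the tested genes of the kinin system, Klk8 and the growth factor and renin genes (TMM scaling, bars SE), with red for higher, blue for lower and grey for genes not past the test, and open diamonds for total counts only. A2m, at 0 in normal pancreas, is left out, Cpe at 6.32 is the highest value plotted with TMM scaling and Spink1 at -8.41 the lowest, and total counts only moves the genes to the right.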

How the data were processed

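RNA of 3 tumours and 2 normal pancreas samples was sequenced. Trim Galore 0.60, STAR 2.7, RSEM 1.31 and the builds mm10 and GRCm38 are named in the submitters' processing notes. Annotation release, library type, strand and read length: not given in the sources used here. Values deposited by the authors were expected counts per gene, in which RSEM divides reads that fit several genes, and TPM values, which it computes from those counts and effective lengths. The gene lengths used for Klk1 transcripts are of another unit, bases, and come from the per-library files the authors deposited. A table of FPKM was not used, and 92 spike-in rows at 0 counts were left out. Per the labels' protocols, normal pancreas was perfused with an RNase inhibitor before removal, which is not stated for the tumours and cannot be told apart from tissue.

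Rounded expected counts went into edgeR 4.0.16 in R 4.3.3 (quasi-likelihood test, TMM, filterByExpr, Benjamini-Hochberg over 16810 genes, threshold 0.05). Positive log2 values mean higher in tumour. The SE is the absolute log2 fold change over the square root of F. The TMM factors were 2.50, 2.57 and 2.19 in tumours and 0.271 and 0.263 in normal pancreas. DESeq2 1.42.0 and limma 3.58.1 on log2(TPM + 1) and log2(TPM + 0.1) were alternatives. The edgeR script was checked on simulated data. For genes at 0 in a group, bounds use a floor of 3 counts over that group, and those with 1 to 3 counts as pooled ratios with 95% exact binomial intervals. For a copy at 0 in tumours the lower 95% exact limit is below its bound. Bounds and intervals cover counting error only: without molecular identifiers, reads are not independent molecules. The labels do not say whether every tumour is from a separate mouse, so p-values reflect the spread between samples, part of which may be technical. Transcript windows came from GENCODE M21 and promoters from RefSeq, where all 10 genes matched by symbol. RefSeq and GENCODE starts differ for some copies. A few genes are left out and not reported here. The genes and lists were chosen with earlier results of these data known. The named genes are all 10 copies, the other Klk1b rows as counts, the list genes with those past the threshold first, and the 5 genes most alike in profile.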

Additional observations from a re-analysis of the deposited data

How the results depend on the processing

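The summed log2 fold change of the 10 copies was -14.01 (ratio of group mean CPM) and stayed negative in all alternatives. It was -10.96 with total counts only, -11.31 on log2(TPM + 1), and -16.68 to -13.45 with 1 library left out, the lowest without tumour replicate 3. Genes called numbered 6587 higher and 4669 lower, against 15681 and 398 with total counts only, 10665 and 1173 by limma on log2(TPM + 1), 11558 and 1192 on log2(TPM + 0.1), and 4631 to 6581 higher and 3443 to 4823 lower with 1 library left out. The share of calls that were higher was 58.5%, against 97.5% with total counts only, 60% with DESeq2 size factors and 62.5% after upper-quartile scaling. Kinin genes called numbered 5 higher and 5 lower, against 15 and 1 with total counts only, 9 and 1 on log2(TPM + 1), 10 and 1 on log2(TPM + 0.1), and 2 to 6 higher and 3 to 7 lower with 1 library left out. Without normal replicate 1 they numbered 3 and 3, and without normal replicate 2 they numbered 2 and 3. The growth factor and renin list gave 7 higher and 1 lower with total counts only, and 3 to 4 higher and 2 lower with 1 library left out. Of the other tissue kallikreins, 1 was higher with total counts only and on log2(TPM + 0.1), 1 was lower without a filter and by DESeq2, and 0 were called with 1 library left out.

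Of 26 list genes, 12 changed sign in some alternative, and the cause was not tested. With total counts only, log2 values became positive for Ace (2.31), Agtr1a (2.41), Bdkrb2 (2.46), Cpm (2.15), Cpn1 (2.02), Egfr (0.70), Mme (2.16), Nln (2.78), Prcp (3.13), Sort1 (2.47), Thop1 (2.58) and Xpnpep1 (1.81). On log2(TPM + 1) they did for Ace (0.29), Agtr1a (0.18), Bdkrb2 (0.15), Cpm (0.26), Cpn1 (0.26), Mme (0.025), Nln (0.60), Prcp (0.80), Sort1 (0.52), Thop1 (0.80) and Xpnpep1 (0.0017). On log2(TPM + 0.1) they did for Ace (0.50), Agtr1a (0.63), Bdkrb2 (0.50), Cpm (0.35), Cpn1 (0.28), Mme (0.082), Nln (0.98), Prcp (1.24), Sort1 (0.62) and Thop1 (0.94). Prcp was 0.072 with upper-quartile scaling and -0.22 to 0.074 with 1 library left out (0.063 without normal replicate 1, 0.074 without tumour replicate 3). No paired analysis was possible because the replicate numbers follow accession order only and pair no tumour with a normal sample. Summing tumour replicates 1 and 2, whose titles share a number, gave 5 kinin genes higher and 7 lower. The tumour values rest on 31 counts, 29 of them of Klk1, which limits their precision. Groups of 3 and 2 samples are too small for a test of outlying samples.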
